A study of Mus musculus with 6 samples.

Results

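The genes described here are 48 genes of the cell cycle, chosen by name as G1/S cyclins, replication factors and mitosis genes, of 24061 gene identifiers in the deposited count table. All 48 had a row in the table, and all 48 passed the filter on low counts that left 16089 genes to be tested. Messenger RNA was measured by bulk RNA sequencing of mouse lung in 2 groups of 3 samples, all given doxycycline for 3 weeks. The control mice had the genotype CCSP/- and the other mice the genotype CCSP/TGFalpha, called control and TGFalpha below. The CCSP promoter, of the club cell secretory protein gene, is a common driver of transgenes in airway and alveolar epithelium, and TGFalpha is a ligand of the epidermal growth factor receptor. Further alleles, the strain, the age, the sex and the origin of the TGFalpha sequence are not stated in the sources used here. Nothing in the labels says whether the 3 samples of a group came from separate animals, so p-values measure the spread between these samples, which may be technical.

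A dividing cell passes through 4 ordered phases, and different genes are switched on in each. D-type cyclins and then E-type cyclins, with their kinase partners, release E2F transcription factors, which switch on genes for nucleotide supply and for loading the MCM helicase onto DNA. Later, cyclin A and cyclin B with the kinase CDK1 drive mitosis, in which kinesins and other spindle proteins separate the chromosomes. In the adult lung most cells rest outside the cycle, so the transcripts of the mitosis genes are sparse in whole tissue. In bulk RNA, more cells in cycle and more of a transcript per cell cannot be told apart.

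Many promoters of mitosis genes are known to carry a CHR element (cell cycle genes homology region), bound by the DREAM and MYB-MuvB complexes, with CCAAT boxes bound by NF-Y, while E2F sites are typical of replication genes. The sequences below are upstream stretches of 150 bases from 5 genes that were higher in TGFalpha lungs and from Mki67, which was not, so that a reader can see what they share. They come from RefSeq promoters on GRCm38.p6, written 5′ to 3′ on the strand of the gene. Relative to the listed start, the stretch runs from -176 to -27 in Cdk1, from -234 to -85 in Ccnb1 and from -149 to 0 in Prc1. For Mcm2, Rrm1 and Mki67 it runs from -150 to -1. In the exon annotation used to cut them, the stretches hold no exon bases, except for 2 in Prc1, where a motif crosses into the exon. The gene coordinates given below differ from it. By them, the stretches of Prc1 and Mki67 run past the first base of the gene. Capitals mark TTTGAA (CHR), CCAAT and TTTNGCGC (E2F), or their reverse complements.
Cdk1, chr10:69352939-69353088, minus strand: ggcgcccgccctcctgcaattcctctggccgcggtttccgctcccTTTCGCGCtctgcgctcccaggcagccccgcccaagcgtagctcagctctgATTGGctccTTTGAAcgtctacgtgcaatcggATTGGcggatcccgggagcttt
Ccnb1, chr13:100786571-100786720, minus strand: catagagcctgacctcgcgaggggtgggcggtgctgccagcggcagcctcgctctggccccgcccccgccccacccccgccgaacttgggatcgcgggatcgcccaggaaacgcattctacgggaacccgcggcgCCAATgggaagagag
Prc1, chr7:80294302-80294451, plus strand: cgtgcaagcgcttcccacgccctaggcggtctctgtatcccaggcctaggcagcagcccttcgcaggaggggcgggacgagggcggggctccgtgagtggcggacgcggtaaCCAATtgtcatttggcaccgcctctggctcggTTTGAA
Mcm2, chr6:88898781-88898930, minus strand: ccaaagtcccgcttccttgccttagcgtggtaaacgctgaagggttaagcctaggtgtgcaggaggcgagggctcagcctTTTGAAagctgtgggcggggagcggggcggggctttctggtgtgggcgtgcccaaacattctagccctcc
Rrm1, chr7:102441545-102441694, plus strand: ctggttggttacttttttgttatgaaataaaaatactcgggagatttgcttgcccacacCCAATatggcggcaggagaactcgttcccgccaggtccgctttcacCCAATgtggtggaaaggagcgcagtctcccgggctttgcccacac
Mki67, chr7:135716380-135716529, minus strand: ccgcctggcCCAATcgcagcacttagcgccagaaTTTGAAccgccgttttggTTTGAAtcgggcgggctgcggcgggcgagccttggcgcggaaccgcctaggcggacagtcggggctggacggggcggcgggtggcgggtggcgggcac

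A RefSeq promoter, from 250 bases before to 50 bases after a start site, was listed for 38 of the 48 genes. The 3 motifs were searched on both strands, and none is contained in another. In the stretches shown, Cdk1 has 1 E2F match, 1 CHR and 2 CCAAT, Ccnb1 1 CCAAT, Prc1 1 CHR and 1 CCAAT, Mcm2 1 CHR, Rrm1 2 CCAAT, and Mki67 2 CHR and 1 CCAAT. The searched windows are longer and held 2 CHR and 3 CCAAT for Cdk1, 2 CCAAT for Ccnb1, 1 CCAAT for Mcm2 and 3 CCAAT for Mki67. CHR was found in 19 of the 38 genes (50%), against 20.2% of 27025 genes with a listed promoter. CCAAT was found in 29 of the 38 genes (76.3%), against 41.1% of all genes, and the E2F motif in 6 (15.8%), against 1.57%. The motifs were spread by role. Of 23 mitosis genes 18 held CHR (78.3%) and 20 held CCAAT (87%), whereas of 14 genes of G1/S, replication and nucleotide supply 1 held CHR, 8 held CCAAT and 5 held the E2F motif. The 1 replication gene with CHR was Mcm2, at 70 bases before its start. These are letter matches and not measured binding, and for Kif2c, Prc1 and Mki67 the listed start lies inside the coordinates of the gene. CHR was found both in mitosis genes that rose and in those that did not pass the test, in 15 of 19 of the latter (78.9%).

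Of the 48 cell cycle genes, 8 rose in TGFalpha lungs and none fell. Those that rose were the mitotic kinase and cyclin genes Cdk1, Ccnb1 and Ccna2, the spindle genes Kif2c, Prc1 and Kif20a, the helicase gene Mcm2 and the ribonucleotide reductase gene Rrm1. The calls are at a Benjamini-Hochberg adjusted p under 0.05 in the quasi-likelihood test of edgeR, adjusted over all 16089 genes. The share that rose was 16.7%, against 5.03% of all genes tested. For falls the share over all genes was 3.29%, and no cell cycle gene fell by edgeR, DESeq2 or limma-voom after adjustment. Before adjustment (p under 0.05 by edgeR), 21 of the 48 genes (43.8%) were higher, against 14.2% of all genes, and 0 were lower, against 12.8%. With DESeq2 size factors in edgeR, and in the DESeq2 test, Ccnd1 was lower before adjustment.

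The changes were small at the median and ran mostly one way. The log2 fold change was above 0 for 44 of the 48 genes (91.7%), against 50.9% of all genes tested. Its median was 0.50, against 0.01 over all genes tested, and it ran from -0.31 for Ccnd1 to 1.37 for Cdk1. All 3 TGFalpha libraries lay above all 3 control libraries for 25 genes (52.1%), against 17.7% of all genes. They lay below for 1 gene, Ccnd1, against 15.5% of all genes. The cell cycle genes share regulators and the same 6 libraries, so they are not independent of each other.

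**Figure D1:**
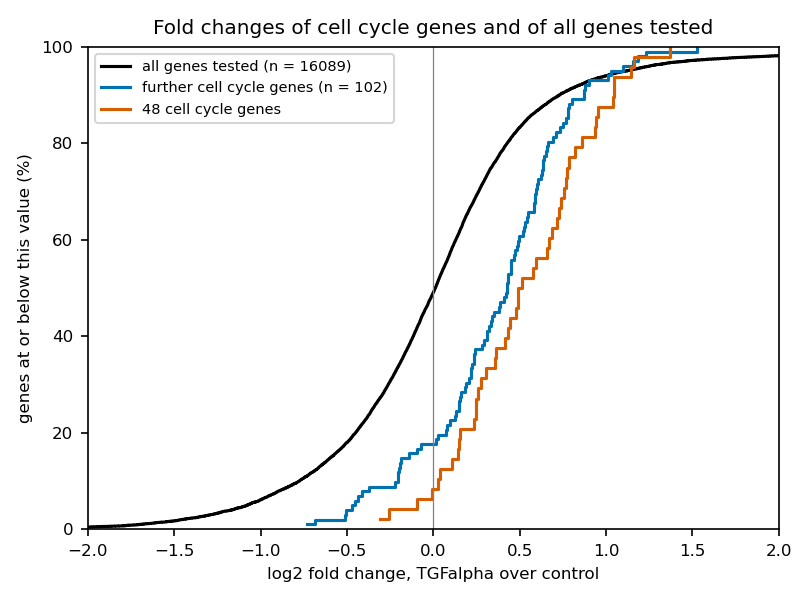
Cumulative share of genes (vertical axis, percent) at or below each log2 fold change of TGFalpha over control (horizontal axis), for the 48 cell cycle genes, 102 further cell cycle genes and all 16089 genes tested. The curve of the 48 genes crosses 50% at a log2 fold change of 0.50 and that of all genes at 0.01.

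Single libraries stood apart within each group. Control replicate 3 was the lowest of the 6 libraries for 33 of the 48 genes, and TGFalpha replicate 1 the highest for 26. The same counts were not made over all genes. The mean log2 level of the 48 genes relative to the control mean was 0.05, 0.17 and -0.22 in control replicates 1 to 3. It was 0.67, 0.41 and 0.49 in TGFalpha replicates 1 to 3, so the groups did not overlap in this mean. Over all genes tested this mean was 0.04, -0.03 and -0.01 in control replicates 1 to 3. It was 0.04, 0.03 and -0.015 in TGFalpha replicates 1 to 3. Library totals ran from 21479006 to 24914322 counts. A separate feature marked control replicate 1 and TGFalpha replicate 1, which held skeletal muscle transcripts: 7 muscle genes summed to 1238 and 2037 CPM there and to between 51.5 and 68.9 CPM in the other 4 libraries. CPM are counts per 1000000 counts of the TMM-scaled library size. Control replicate 3 was low in the mesothelial markers Wt1, Msln, Upk3b and Lrrn4, at 0.731, 11.4, 6.57 and 3.65 CPM. In control replicates 1 and 2 these were at 11.2 and 12.7, 68.1 and 70.6, 83.2 and 83.7, and 36.8 and 40.9 CPM. The part of this in the low values of control replicate 3 was not tested.

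**Figure D2:**
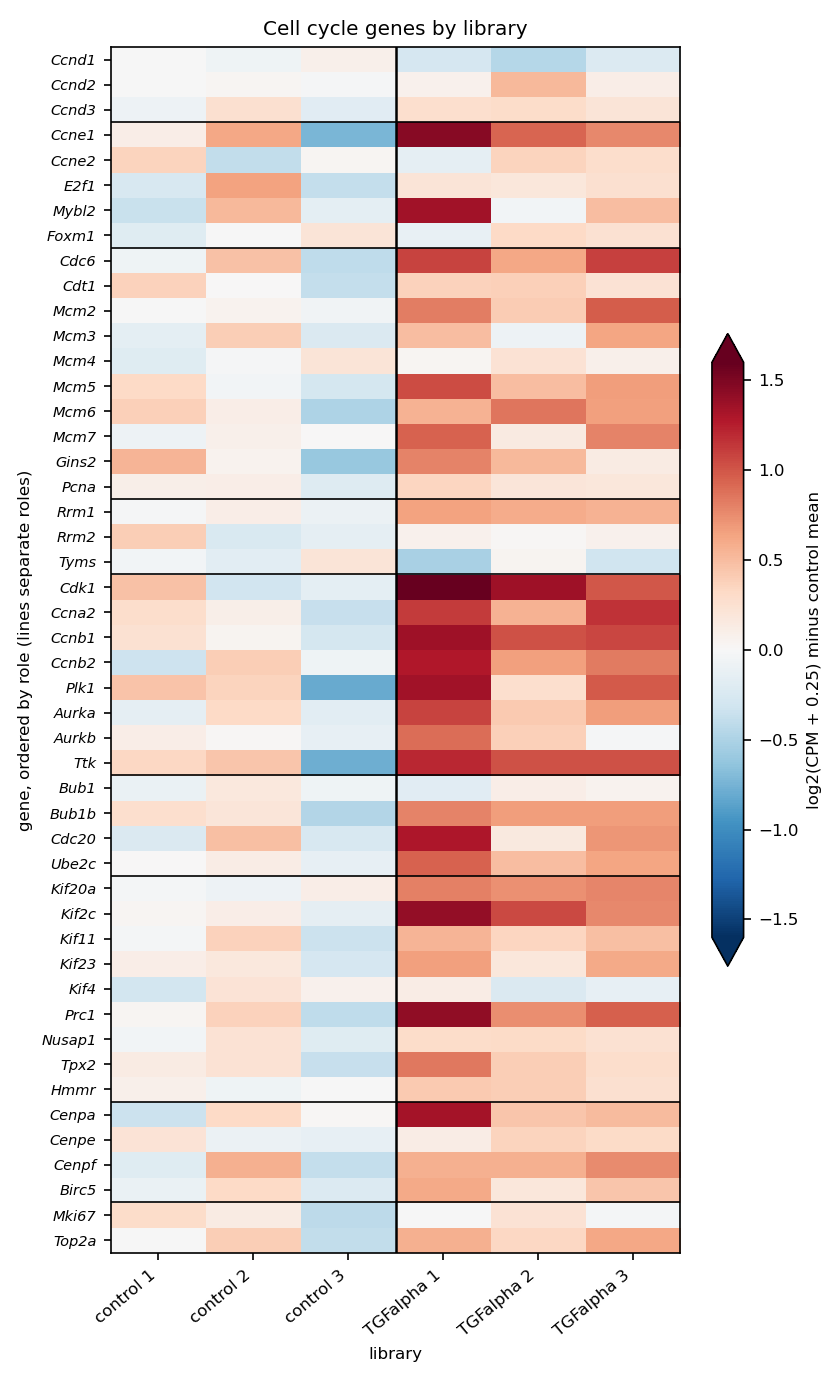
Level of each of the 48 genes (rows, grouped by role) in each of the 6 libraries (columns), as log2(CPM + 0.25) minus the mean of the 3 control libraries. Red is above and blue below the control mean. The rows of Cdk1, Ccnb1, Kif2c and Prc1 are red in all 3 TGFalpha libraries, while Bub1, Rrm2 and Mki67 show no such block.

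How many genes were called depended on single libraries. With control replicate 2 left out edgeR called 0 (28 higher before adjustment), with control replicate 3 left out 0 (13 before adjustment), and with TGFalpha replicate 1 left out 0 (14 before adjustment). Leaving out control replicate 1 gave 3 calls, TGFalpha replicate 2 gave 5 and TGFalpha replicate 3 gave 4. Calls over all genes in either direction also dropped, from 1340 to 307, 238 and 411 without control replicate 2, control replicate 3 and TGFalpha replicate 1. Of these, 810 were higher in the full fit and 264, 204 and 317 in the smaller fits. Without control replicate 1, TGFalpha replicate 2 and TGFalpha replicate 3, 529, 413 and 606 genes were called higher. Shares of all genes before adjustment were not computed for these fits. With both muscle-holding libraries left out, an alternative chosen after seeing the data, Cdk1 and Ccnb1 rose and the median log2 fold change was 0.45. In that fit 307 of all genes were called higher. The median lay between 0.38 (without control replicate 3) and 0.65 (without control replicate 2) when any 1 library was left out. By DESeq2, 12 of the 48 genes rose, against 7.63% of the genes it tested, namely the 8 called by edgeR and Ccnb2, Cdc6, Mcm5 and Ube2c.

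The mitotic kinases and cyclins had the highest median of the role groups, a log2 fold change of 0.95 over 8 genes, of which 3 rose and 6 had groups that did not overlap. Over all genes tested 5.03% rose, and 17.7% had all TGFalpha libraries above all controls. Cdk1 (gene ID 12534; GRCm38, chromosome 10, 69335146 to 69352912) encodes the kinase that starts mitosis. It was at 15.01, 8.66 and 9.63 CPM in control replicates 1 to 3 and at 36.6, 28.0 and 21.7 CPM in TGFalpha replicates 1 to 3. The lowest TGFalpha library thus lay above the highest control. Its mean went from 11.1 ± 3.42 to 28.8 ± 7.47 CPM (SD, n = 3 per group), which is 1.37 ± 0.27 on the log2 scale (SE; adjusted p = 0.0245 by edgeR).

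Ccnb1 (gene ID 268697; chromosome 13, 100778739 to 100786486) encodes cyclin B1, the partner of CDK1 at the entry to mitosis. Its control libraries held 10.8, 9.35 and 7.44 CPM and its TGFalpha libraries 23.7, 18.6 and 19.4 CPM. Every TGFalpha library was well above every control, with a log2 difference of 1.16 ± 0.20 and the lowest adjusted p of the 48 genes, 0.0158. Ccna2 (gene ID 12428; chromosome 3, 36564865 to 36573038) encodes cyclin A2, which acts in S phase and in the approach to mitosis. It was at 20.2, 17.7 and 12.9 CPM in controls and at 36.5, 24.5 and 37.2 CPM in TGFalpha lungs, with TGFalpha replicate 2 nearest to the controls (log2 fold change 0.95 ± 0.23, adjusted p = 0.0443). The other 5 genes of this group were Ccnb2, for cyclin B2, Plk1, Aurka and Aurkb, for kinases of the spindle and centrosome, and Ttk, for the checkpoint kinase MPS1. Their log2 fold changes ran from 0.49 (Aurkb) to 1.05 (Ttk), none passed by edgeR (lowest adjusted p 0.0756, for Ccnb2), and Ccnb2, Aurka and Ttk were higher before adjustment.

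**Figure D3:**
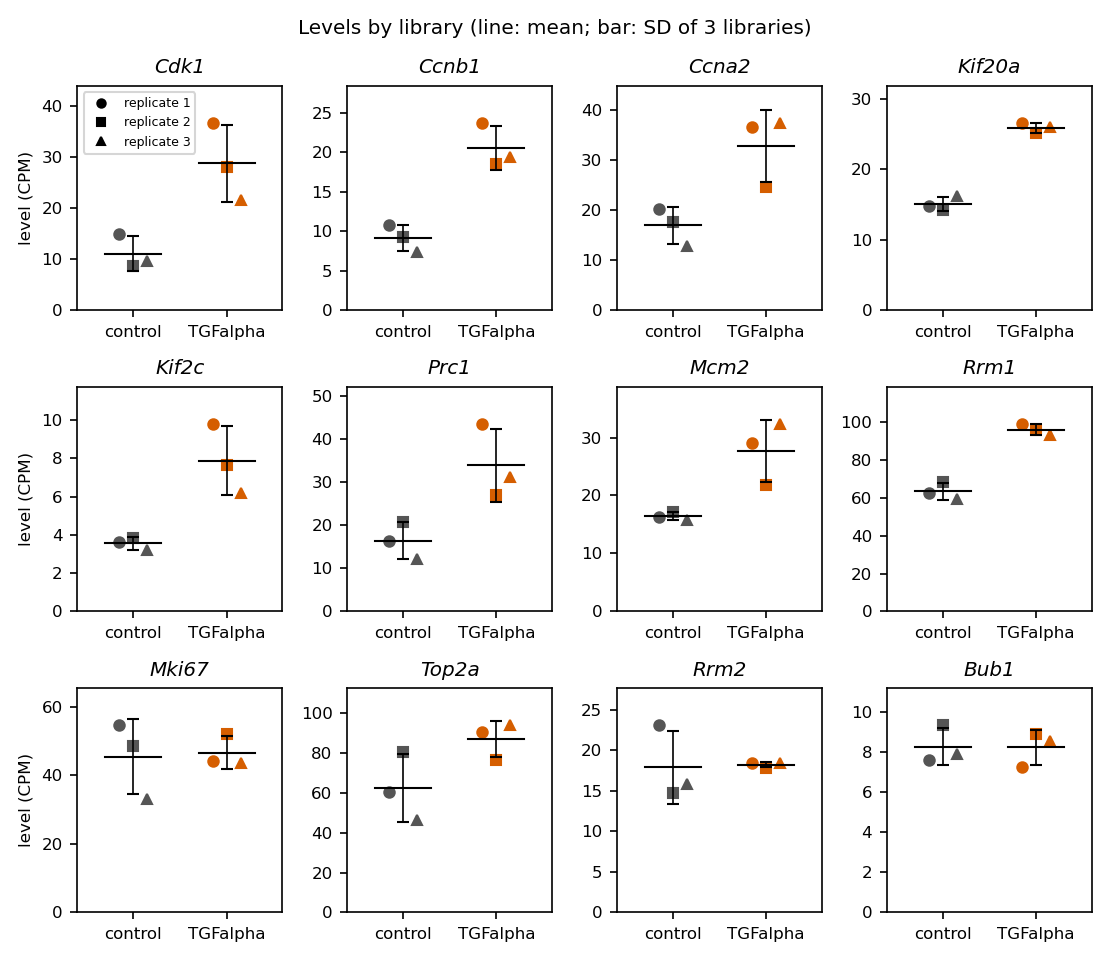
Level in CPM (vertical axis, from 0) of the 8 genes that rose and of Mki67, Top2a, Rrm2 and Bub1 in control (grey) and TGFalpha (orange) lungs. Symbols are the 3 replicates, horizontal lines the means and bars the SD. Groups do not overlap in the upper 8 panels and overlap in the lower 4.

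Among 9 kinesin and spindle genes 3 rose (33.3%), against 5.03% of all genes tested. In 7 (77.8%) the groups did not overlap, against 17.7% of all genes with TGFalpha above. The median log2 fold change was 0.49. Kif20a (gene ID 19348), a kinesin of the central spindle and cytokinesis, was the most even: 14.8, 14.3 and 16.2 CPM in controls and 26.5, 25.1 and 26.0 CPM in TGFalpha lungs. The gap between the groups was far wider than the spread within either (log2 fold change 0.78 ± 0.15, adjusted p = 0.0205). Prc1 (gene ID 233406; chromosome 7, 80294445 to 80316259) encodes the protein that bundles microtubules of the central spindle. Its levels were 16.5, 20.8 and 12.1 CPM in controls and 43.4, 27.1 and 31.3 CPM in TGFalpha lungs, highest in TGFalpha replicate 1 (log2 fold change 1.05 ± 0.25, adjusted p = 0.0430). Kif2c (gene ID 73804; chromosome 4, 117159633 to 117182624) encodes a kinesin that takes apart microtubules at centromeres. It went from 3.61, 3.85 and 3.20 CPM to 9.78, 7.65 and 6.201 CPM, with no overlap (log2 fold change 1.15 ± 0.27, adjusted p = 0.0400).

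The 6 other genes of the spindle group did not pass. Kif11 and Kif23, kinesins of spindle poles and midzone, and Tpx2, Nusap1 and Hmmr, which bind spindle microtubules, had log2 fold changes between 0.28 (Nusap1) and 0.51 (Tpx2). Kif4, a chromosome-bound kinesin, was at 3.13, 4.58 and 4.11 CPM in controls and at 4.25, 3.29 and 3.52 CPM in TGFalpha lungs. These values overlap, with a log2 fold change of -0.10 and a 95% interval from -0.76 to 0.57.

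**Figure D4:**
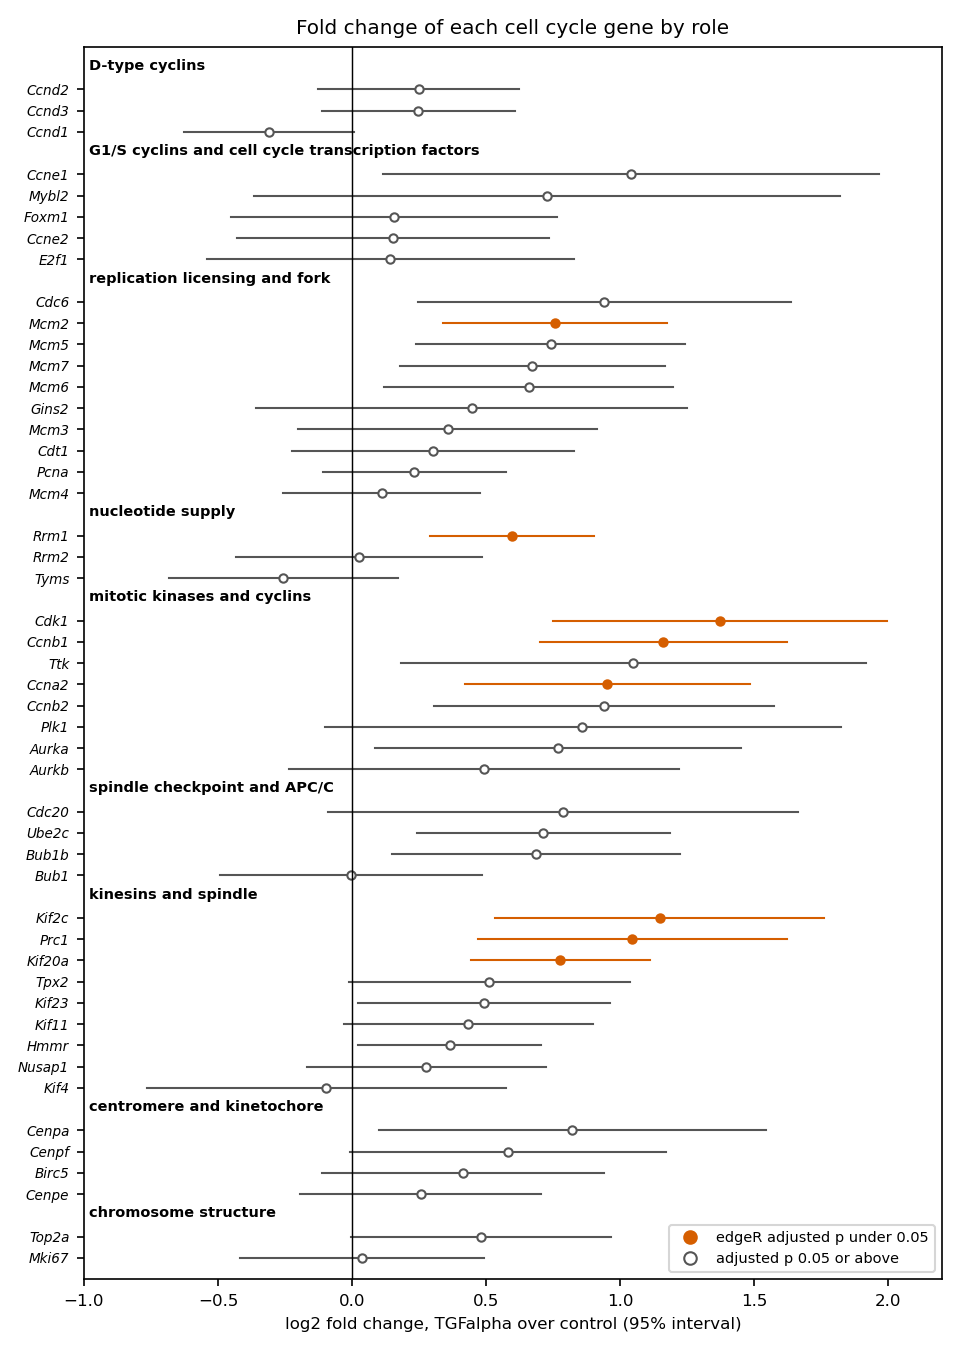
Log2 fold change of TGFalpha over control for each of the 48 genes (points) with its 95% interval (lines), grouped by role. Filled orange points are the 8 genes with an edgeR adjusted p under 0.05. Intervals lie wholly above 0 for 21 genes and wholly below 0 for none.

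None of the 4 spindle checkpoint and anaphase genes passed by edgeR. Before adjustment 2 of them (50%) were higher, against 14.2% of all genes tested. Differences between these genes were not tested. Ube2c, the ubiquitin-conjugating enzyme of the anaphase-promoting complex, had 7.99, 8.66 and 7.26 CPM in controls and 15.5, 11.3 and 12.4 CPM in TGFalpha lungs. Its groups did not overlap, but it did not pass (log2 fold change 0.71 ± 0.21, adjusted p = 0.0706). Ube2c shares exon bases on the other strand with the muscle gene Tnnc2, one of the 7 muscle genes above, and the part of those reads in its TGFalpha replicate 1 value was not tested. Bub1b, for the checkpoint protein BUBR1, was at 10.4, 9.90 and 6.16 CPM against 15.05, 13.8 and 13.8 CPM (log2 fold change 0.69 ± 0.23, adjusted p = 0.107). Cdc20, the activator that the checkpoint restrains, had 2.97, 5.04 and 2.92 CPM against 9.01, 3.95 and 5.91 CPM, so the groups overlapped (log2 fold change 0.79 ± 0.38, adjusted p = 0.227). Without TGFalpha replicate 1 the value for Cdc20 was 0.44, and without both replicates 1 it was 0.31.

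Bub1, for the checkpoint kinase, stayed near its control level: 7.63, 9.35 and 7.90 CPM in controls and 7.27, 8.92 and 8.59 CPM in TGFalpha lungs. Its log2 fold change was -0.01, with a 95% interval from -0.49 to 0.48. The centromere and kinetochore genes had a median of 0.50 over 4 genes, and none passed by edgeR. Before adjustment Cenpa alone was higher (25%, against 14.2% of all genes tested). Cenpa, the histone of centromeres, was at 4.98, 8.02 and 6.48 CPM in controls and at 16.5, 8.80 and 9.13 CPM in TGFalpha lungs, where replicate 1 stood far above replicates 2 and 3 (log2 fold change 0.82, or 0.47 without that library; adjusted p = 0.139). Cenpf, for a kinetochore protein, had 11.6, 19.8 and 10.1 CPM against 19.7, 19.7 and 22.5 CPM, with control replicate 2 at the level of the TGFalpha lungs (log2 fold change 0.58, or 0.93 without that library; adjusted p = 0.192). Birc5, for survivin of the chromosomal passenger complex, had 8.07, 10.9 and 7.44 CPM against 13.4, 9.91 and 11.9 CPM, which overlap (adjusted p = 0.285). The remaining gene, Cenpe, a kinetochore kinesin, had a log2 fold change of 0.26.

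The widely used proliferation marker Mki67 did not pass. Mki67 (gene ID 17345; chromosome 7, 135689784 to 135716450) encodes Ki-67, which coats mitotic chromosomes. It was at 54.6, 48.7 and 33.2 CPM in controls and at 44.2, 52.2 and 43.7 CPM in TGFalpha lungs. The TGFalpha values lie inside the range of the controls, and the log2 fold change was 0.04 ± 0.20, with a 95% interval from -0.42 to 0.49. The interval of Cdk1 ran from 0.75 to 1.99, above that of Mki67, but the difference between the 2 genes was not tested. Top2a, for the topoisomerase that untangles sister chromatids, had 60.6, 80.4 and 46.4 CPM in controls and 90.9, 76.6 and 94.0 CPM in TGFalpha lungs. These overlapped through control replicate 2 and TGFalpha replicate 2, and the gene did not pass (log2 fold change 0.48 ± 0.21, or 0.30 without control replicate 3; adjusted p = 0.188). As printed above, the stretch before the listed Mki67 start holds TTTGAA at 2 places.

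Of 10 replication licensing and fork genes 1 rose (10%), against 5.03% of all genes tested. In 6 (60%) the groups did not overlap, against 17.7% of all genes with TGFalpha above. The median log2 fold change was 0.55. Mcm2 (gene ID 17216; chromosome 6, 88883474 to 88898780) encodes a subunit of the MCM helicase that unwinds DNA. It went from 16.3, 17.1 and 15.7 CPM to 29.0, 21.8 and 32.3 CPM, with TGFalpha replicate 2 lowest of its group (log2 fold change 0.76 ± 0.18, adjusted p = 0.0430). Mcm5 was at 18.0, 13.9 and 11.8 CPM against 29.7, 20.4 and 23.0 CPM (log2 fold change 0.74 ± 0.22, adjusted p = 0.0758). Mcm7 was at 21.5, 24.1 and 22.8 CPM against 44.1, 25.2 and 39.6 CPM (log2 fold change 0.67 ± 0.22, adjusted p = 0.0917), and shares exon bases on the other strand with Ap4m1 and Cops6. Cops6 itself rose, from 42.6 ± 1.10 to 68.9 ± 9.57 CPM (log2 fold change 0.69 ± 0.15, adjusted p = 0.0310), and the part of its reads in the Mcm7 values was not tested. Mcm5, Mcm6, Mcm7, Cdc6 and Pcna had all TGFalpha libraries above the controls without passing. Mcm6 had a log2 fold change of 0.66. Mcm3, at 0.36, and Mcm4, at 0.11, had groups that overlapped.

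The loader genes Cdc6 and Cdt1 had log2 fold changes of 0.94 (adjusted p = 0.0931) and 0.30. Gins2, a part of the active helicase, had 0.45, and Pcna, for the sliding clamp of the polymerases, had 0.23. The 6 MCM subunits form 1 ring with 1 copy of each, so their levels were also compared per kilobase of the longest coding transcript in GENCODE M21. In controls Mcm4 had the highest mean, 8.83 ± 1.27 CPM per kb, and Mcm6 the lowest, 3.49 ± 1.03. Mcm4, Mcm3 (7.74 ± 1.93) and Mcm7 (7.69 ± 0.43) did not differ beyond their spread, nor did Mcm2 (4.86 ± 0.21) and Mcm5 (4.31 ± 0.94), or Mcm5 and Mcm6. In TGFalpha lungs Mcm7 had the highest mean (12.3 ± 3.33 CPM per kb) and Mcm6 again the lowest (5.50 ± 0.60). From Mcm7 down through Mcm3 (9.91 ± 2.42), Mcm4 (9.53 ± 0.70), Mcm2 (8.21 ± 1.59) and Mcm5 (7.20 ± 1.43) to Mcm6 no neighbours differed beyond their spread. The annotation behind the counts was not given, so lengths are approximate.

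Of the 3 nucleotide supply genes only Rrm1 passed (33.3%), where 5.03% of all genes tested rose. Differences between the genes were not tested. Rrm1 (gene ID 20133; chromosome 7, 102441695 to 102469771) encodes the large subunit of ribonucleotide reductase, which makes the building blocks of DNA. It was at 62.9, 68.3 and 59.5 CPM in controls and at 99.0, 96.1 and 93.3 CPM in TGFalpha lungs, with narrow spread in both (log2 fold change 0.60 ± 0.13, adjusted p = 0.0359). Rrm2, for the small subunit, which is made mainly in S phase, had 23.1, 14.8 and 15.8 CPM against 18.4, 17.8 and 18.4 CPM. The TGFalpha values lay inside the control range (log2 fold change 0.03, 95% interval from -0.43 to 0.48). Tyms, for thymidylate synthase, had 43.3, 39.7 and 51.7 CPM against 31.1, 46.0 and 35.7 CPM, lower on average but overlapping (log2 fold change -0.26, 95% interval from -0.68 to 0.17). Per length, Rrm1 stood at 15.9 ± 1.11 CPM per kb in controls and 24.1 ± 0.71 in TGFalpha lungs, above Rrm2 at 8.16 ± 2.06 and 8.31 ± 0.15.

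**Figure D5:**
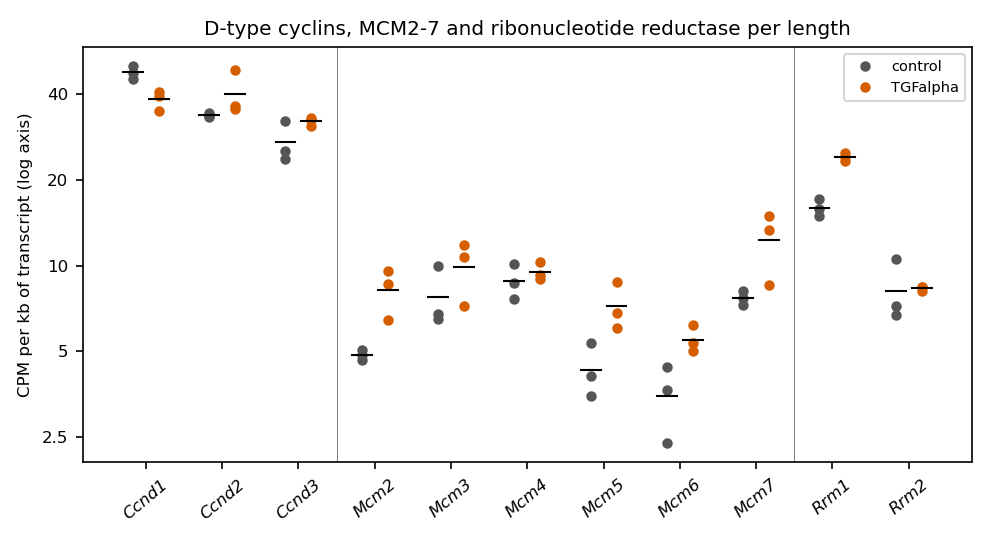
Level per length (CPM per kb of the longest coding transcript, log axis) of the D-type cyclins, the 6 MCM subunits and the 2 ribonucleotide reductase subunits in each control (grey) and TGFalpha (orange) library. Lines are group means. Rrm1 lies higher in all 3 TGFalpha libraries, Rrm2 does not, and Ccnd1 is the gene whose TGFalpha points lie below the control points.

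D-type cyclins, which link growth factor signals to the cycle, did not pass in either direction (lowest adjusted p 0.192; 0 of the 3 before adjustment, and 0 after adjustment by DESeq2 or limma-voom). Ccnd1, for cyclin D1, was at 177, 169 and 188 CPM in controls and at 148, 130 and 152 CPM in TGFalpha lungs. All TGFalpha values were below all control values, with a log2 fold change of -0.31 and a 95% interval from -0.63 to 0.01. Ccnd2, for cyclin D2, had 211, 217 and 210 CPM against 223, 306 and 229 CPM, higher in each TGFalpha library and most so in replicate 2 (log2 fold change 0.25, or 0.090 without that library, 95% interval from -0.13 to 0.62). Ccnd3, for cyclin D3, had 53.5, 67.8 and 49.996 CPM against 68.4, 69.6 and 65.3 CPM, which overlap (log2 fold change 0.25, 95% interval from -0.11 to 0.61).

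Per length, the order of the D-type cyclins in controls was Ccnd1 (47.6 ± 2.46 CPM per kb), Ccnd2 (33.6 ± 0.53) and Ccnd3 (27.0 ± 4.48). In TGFalpha lungs Ccnd2 (39.9 ± 7.30 CPM per kb) and Ccnd1 (38.3 ± 3.17) did not differ beyond their spread. Ccnd3 had a mean of 32.1 ± 1.06 and did not differ beyond the spread from Ccnd2.

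The G1/S cyclins and transcription factors had a median log2 fold change of 0.16 over 5 genes. None passed after adjustment by edgeR, DESeq2 or limma-voom. By edgeR before adjustment 1 was higher (20%, against 14.2% of all genes tested). That gene was Ccne1, for cyclin E1, which starts S phase. It was at 3.13, 4.58 and 1.64 CPM in controls and at 8.37, 5.76 and 5.11 CPM in TGFalpha lungs, without overlap but with wide spread (log2 fold change 1.04 ± 0.40, adjusted p = 0.144). Ccne2, for cyclin E2, had 13.1, 7.66 and 10.4 CPM against 9.18, 13.04 and 12.4 CPM, which overlap (log2 fold change 0.15). Mybl2, for the B-MYB factor that activates mitosis genes, had 1.45, 2.84 and 1.69 CPM against 5.23, 1.85 and 2.81 CPM, high in TGFalpha replicate 1 alone (log2 fold change 0.73 ± 0.48, or 0.23 without that library; adjusted p = 0.362). E2f1, the activator of replication genes, and Foxm1, another activator of mitosis genes, had log2 fold changes of 0.14 and 0.16.

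Other genes of the cycle, from 4 lists by role, had a positive median. Of 102 further genes tested 5 rose (4.9%), near the 5.03% of all genes, and none fell by edgeR. Before adjustment 33 were higher (32.4%) and 7 lower (6.86%), against 14.2% and 12.8% of all genes. Their median log2 fold change was 0.43, and 43 of them (42.2%) had groups without overlap, TGFalpha above, against 17.7% of all genes. Among 36 further mitosis genes 3 rose. Cep55, for a scaffold of the final cut between daughter cells, went from 7.81 ± 1.22 to 15.7 ± 2.23 CPM. Anln, for the contractile ring protein anillin, went from 14.8 ± 1.75 to 24.9 ± 2.08 CPM, and Melk, a kinase gene expressed in cycling cells, from 4.66 ± 0.58 to 10.01 ± 2.52 CPM. Their adjusted p values were 0.0273, 0.0325 and 0.0430. With 1 library left out Anln was called in 0 of 6 fits, Melk in 1 and Cep55 in 2.

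Among 19 kinases and their control genes 2 rose (10.5%), against 5.03% of all genes tested. Cks1b, for a small subunit that binds cyclin-dependent kinases, went from 8.92 ± 2.51 to 25.7 ± 8.89 CPM (log2 fold change 1.53 ± 0.30, adjusted p = 0.0237). Cdk4, the partner of the D-type cyclins, went from 79.1 ± 7.47 to 161 ± 58.2 CPM (log2 fold change 1.03 ± 0.24, adjusted p = 0.0422), highest in TGFalpha replicate 1 at 228 CPM. With 1 library left out Cks1b was called in 3 of 6 fits (adjusted p 0.0321 to 0.107) and Cdk4 in 0 (0.0523 to 0.164). Without TGFalpha replicate 1 the log2 fold change of Cdk4 was 0.69. Cdk2, the partner of cyclin E, did not pass, with means of 31.0 ± 2.15 and 42.8 ± 1.77 CPM (adjusted p = 0.0715).

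None of 30 further replication genes rose by edgeR, against 5.03% of all genes tested. At an unadjusted p under 0.05, 5 were higher (16.7%) and 1 lower (3.33%), against 14.2% and 12.8% of all genes. The median log2 fold change of the 30 genes was 0.35. Their lowest adjusted p values were for Uhrf1, a factor that keeps DNA methylation through replication (log2 fold change 0.74, adjusted p = 0.0578), for Dna2, a nuclease of Okazaki fragments (-0.73, 0.106), and for Rfc5, of the clamp loader (0.65, 0.113). Uhrf1 passed by DESeq2 (adjusted p = 0.0306). None of 17 genes of the E2F, Rb and DREAM regulators passed by edgeR, with a median of 0.15. At an unadjusted p under 0.05, 4 were higher (23.5%) and 3 lower (17.6%), against 14.2% and 12.8% of all genes. Tfdp1, the dimer partner of E2F, was at 48.9 ± 6.39 and 73.6 ± 4.86 CPM (adjusted p = 0.0503), and Lin9, of the DREAM and MYB-MuvB complexes, at 9.76 ± 1.33 and 15.2 ± 1.86 CPM (adjusted p = 0.0808). Rb1, the retinoblastoma protein that restrains E2F, averaged 127 ± 16.6 CPM in the control group against 79.2 ± 18.7 CPM (log2 fold change -0.68, adjusted p = 0.0799). By DESeq2 both Tfdp1 and Rb1 passed, Rb1 as lower with an adjusted p of 0.0171.

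Markers of several lung cell types moved with the same contrast, and their part in the values above was not tested. Over all genes tested 5.03% rose and 3.29% fell. Among fibroblast markers 4 of 8 rose, namely Col1a1, Col1a2, Lum and Dcn. The sum of the 8 ran from 1156 to 1324 CPM in controls and from 2632 to 3896 CPM in TGFalpha lungs. Pdgfra and Thy1, with higher means, and Postn and Pdgfrb, with lower means, did not pass. Postn went from a mean of 324 to 246 CPM and Pdgfrb from 76.7 to 74.5 CPM. Among endothelial markers 4 of 7 fell, from sums of 2012 to 3643 CPM to sums of 1012 to 1863 CPM. Macrophage markers summed to 503 to 849 CPM and 562 to 905 CPM, with 1 of 8 higher, and alveolar type 2 markers to 12929 to 16883 CPM and 14811 to 16861 CPM, with none of 6 passing by edgeR. Club cell markers summed to 7979 to 10149 CPM in controls and 4318 to 5714 CPM in TGFalpha lungs, with Scgb1a1 lower and Bpifa1 higher. Mast cell markers summed to 154 to 224 CPM in controls and 50.6 to 88.5 CPM in TGFalpha lungs, mostly from Kit, which was lower. The means of Mcpt4, Tpsb2, Cma1 and Fcer1a were higher in TGFalpha lungs and that of Cpa3 lower, and none of these was called. Mesothelial markers summed to 213 to 412 CPM in controls and 374 to 511 CPM in TGFalpha lungs, with Wt1 higher and Krt19 lower. Alveolar type 1 markers summed to 1453 to 2216 CPM and 932 to 1497 CPM, with Hopx lower. Of the 6 alveolar type 1 markers only Aqp5 had a higher mean in TGFalpha lungs, 163 against 93.3 CPM in controls. Its groups did not overlap, but it did not pass (adjusted p = 0.0616 by edgeR). The lowest mesothelial sum, that of control replicate 3, was mostly Krt19 at 191 CPM. The surfactant markers were abundant in all 6 libraries, as lung tissue has them.

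Lists for cell types that can hold dividing cells gave mixed levels, and their part in the values above was not tested either. Thymocyte genes summed to 16.7 to 20.96 CPM in controls and 9.73 to 21.3 CPM in TGFalpha lungs, mostly from Cd1d1, with Rag2 at 0 in all libraries and Rag1 at 0.504 CPM or less. Of the neutrophil precursor genes Ms4a3 was at 0 in all, Elane and Ctsg had 0 in 5 of the 6, and the list summed to 0.228 to 0.682 CPM in controls and 1.59 to 6.29 CPM in TGFalpha lungs, where Prtn3 rose. Erythroid precursor genes summed to 298 to 437 CPM in controls and 204 to 292 CPM in TGFalpha lungs, mostly from Alas2 and Tfrc, with Klf1 at 0.288 CPM or less. T cell markers summed to 107 to 127 CPM and 69.7 to 133 CPM, and B cell and germinal centre markers to 326 to 1139 CPM and 390 to 622 CPM, mostly from Jchain.

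None of the 8 calls held in every fit that left out 1 library. Leaving out control replicate 2 ended all 8, as did leaving out control replicate 3, and likewise TGFalpha replicate 1. Leaving out control replicate 1 ended those of Kif20a, Kif2c, Mcm2, Prc1 and Rrm1. Leaving out TGFalpha replicate 2 ended those of Cdk1, Kif2c, Prc1 and Rrm1, and TGFalpha replicate 3 those of Ccna2, Mcm2, Prc1 and Rrm1. Over the 6 fits the adjusted p ran from 0.0224 to 0.079 for Ccnb1, from 0.015 to 0.121 for Cdk1, from 0.0443 to 0.0805 for Kif20a and from 0.0425 to 0.16 for Ccna2. It ran from 0.0428 to 0.157 for Kif2c, from 0.0343 to 0.164 for Mcm2, from 0.0569 to 0.158 for Prc1 and from 0.0631 to 0.16 for Rrm1. The log2 fold changes stayed between 1.03 and 1.28 for Ccnb1, between 1.16 and 1.64 for Cdk1 and between 0.55 and 0.65 for Rrm1. Mcm7 was called in addition without TGFalpha replicate 2.

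Counts of the 48 genes ran from 31 to 7441 per library, and 4 genes had under 50 counts in at least 1 library. Since no strand setting was given, reads of genes that share exon bases cannot be told apart, which touches 15 of the 48 genes. Among those that rose these were Ccna2 with Exosc9, Kif20a with Cdc23 and Prc1 with Rccd1. None of these 3 partners passed: Exosc9 had a log2 fold change of 0.25, Cdc23 of 0.32 and Rccd1 of -0.44. Among all 48 genes 6 have pseudogenes that carry their name, including Ccnb1, whose reads may be split with its copies.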

How the data were processed

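Per the labels' protocols, lung RNA was purified on a column and sequenced from standard Illumina libraries. The deposited table holds raw counts per gene, not normalized. The tools bcl2fastq, CASAVA 1.8, TopHat and DESeq and the build mm10 are named in the submitters' processing notes. The counting tool, strand setting and annotation are not given in the sources used here. Of 24061 rows, 4514 held 0 throughout.

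Identifiers were paired with symbols through RefSeq genes on GRCm38.p6, leaving 85 unnamed. Group and replicate came from the titles, and columns were matched by the description labels. Genes were compared with edgeR 4.0.16 (R 4.3.3): TMM scaling, its expression filter by group, a quasi-likelihood F test and Benjamini-Hochberg adjustment over 16089 genes, at a threshold of 0.05. Standard errors came from the coefficient and the F statistic. The test was also tried on counts simulated from the fitted means and dispersions, with 200 genes changed. It recovered 32% of the genes changed 2-fold and 80% of those changed 4-fold, with 4 false calls among 116. A gene that did not pass may therefore still have changed. Libraries of a group differed beyond sampling noise (chi-square over degrees of freedom of 46.6 or more).

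The genes, lists, motifs and roles were chosen with earlier results of these data known. Genes given by library were the 3 of lowest p in each role, the D-type cyclins, Mki67, Top2a and any lower in TGFalpha; from each further list, the 3 of lowest p. Others are given by range, or named after their values were seen. Alternatives were other scalings and filters, DESeq2 1.42.0, voom in limma 3.58.1, a replicate block and left-out libraries.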

Additional observations from a re-analysis of the deposited data

How the results depend on the processing

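The 8 calls among the cell cycle genes were the same 8 under limma-voom, with DESeq2 size factors or unscaled library totals, and with no filter or one of 1 CPM in 3 libraries. DESeq2 called 12 of the genes and 2503 genes in all. With 1 library left out, the number of cell cycle genes that rose ran from 0 to 5. The number of all genes called in either direction ran from 238 to 1088. Without control replicate 1 and TGFalpha replicate 1 together, chosen after seeing the data, these were 2 and 473. These fits have fewer samples. No setting made a cell cycle gene fall, and their median log2 difference stayed between 0.38 and 0.65.

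Replicate numbers are shared by the groups, and same-numbered libraries deviated together for numbers 1 and 3 but not for number 2 (correlations 0.44, -0.10 and 0.27 for numbers 1 to 3), so the numbers were not taken as pairs, and control replicate 2 went best with TGFalpha replicate 3 (0.45). The replicate block gave 6 cell cycle genes that rose, without Mcm2 and Rrm1, a median of 0.51 and 1470 genes in all.

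Genes near no change switched sign in some fits that left out libraries, the fits without both replicates 1 included. The range was -0.071 (without control replicate 1) to 0.092 for Bub1, which was at 0.08 without TGFalpha replicate 1, 0.092 without control replicate 2 and 0.02 without both. It was -0.025 (without control replicate 2) to 0.49 for Ccne2, -0.36 to 0.029 (without control replicate 2) for Kif4, -0.15 (without control replicate 3) to 0.22 for Mki67, at -0.05 without TGFalpha replicate 2, and -0.093 (without control replicate 2) to 0.24 for Rrm2, at -0.06 without control replicate 3. The cause was not tested. Counts as low as 31 per library limit the precision of the sparsest genes.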
